A study of Mus musculus with 6 samples.

Results

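Oocytes keep many mRNAs silent until meiosis resumes, and the proteins of 8 genes followed here by their ribosome footprints bind such stored mRNAs: Zar1, Zar1l, Ybx2, Ybx1, Ybx3, Lsm14a, Lsm14b and Patl2. They were found by gene name among the 22442 rows of the deposited footprint table, and all 8 were present. A growing oocyte makes a large pool of mRNAs, packs much of it with RNA-binding proteins into particles, and draws on it after transcription has stopped. Y-box proteins coat mRNAs, ZAR1 binds them through a zinc finger and takes part in storage particles close to mitochondria, and LSM14 and PAT1-like proteins belong to a repressor assembly around the helicase DDX6. These particles change as the oocyte matures.

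The libraries were made by Ribo-lite, a ribosome profiling method for few cells, from 500 wild-type oocytes each, and the study's methods give a C57BL/6 background, females aged 4 weeks and priming with 5 IU PMSG for 44 h. There were 3 groups with 2 libraries each. WT_FGO held fully grown oocytes, still with an intact germinal vesicle, WT_MII control oocytes at metaphase II, and Treat_MII treated oocytes at metaphase II. The labels say no more than "Treat". In the study's methods the agent added during maturation was BYBX, a ligand of RNA G-quadruplexes (rG4s, folded stretches of G-rich RNA), and controls received its solvent DMSO. The study calls its Ribo-lite replicates biological, and the labels do not tell whether the 2 libraries of a group came from separate mice, so p-values measure only the spread between these libraries.

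Values are FPKM, that is, fragments per kilobase of coding sequence and scaled to the reads of the library. Each value is therefore relative to the whole library, and more or fewer footprints per oocyte cannot be told apart from a change in the rest of the library. RNA-seq was not analysed here, so a footprint level combines the amount of an mRNA with its translation. Whole reads were recovered from the FPKM and the coding lengths, and the totals ran from 94309 to 331304 reads per library, with the WT_FGO libraries lowest and the Treat_MII libraries highest. Changes are differences of group means on the log2(FPKM + 1) scale, tested with limma and called at an adjusted p under 0.05 over 15127 genes. At maturation 555 genes were called higher and 468 lower, and the median change of all genes was -0.44. Centring each library on its median log2 difference from the gene means over the 6 libraries moved these values to 758, 305 and 0.02. Differences of 0 were left out of that median. Oocyte markers had a summed level of 19639 to 45804 FPKM over 14 genes. Oosp1 alone gave 11263 to 15094 FPKM of this in the metaphase II libraries. Single markers could be absent, Dazl being listed at 0 in WT_FGO_2 and Figla at 0 in both WT_MII libraries and Treat_MII_1. The 15 granulosa and cumulus markers summed to 1237 FPKM in WT_FGO_2 and to 128 to 277 FPKM in the other libraries. In WT_FGO_2 they were led by Inha at 747 FPKM, Amh at 196 FPKM and Inhba at 139 FPKM. Listed at 0 there were 6 of the 15, namely Has2, Ptx3, Tnfaip6, Kitl, Nr5a2 and Ptgs2. The levels of Has2, Ptx3 and Tnfaip6 did not pass 5.30 FPKM in any library.

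The sequences of the 8 mRNAs were read first, in GENCODE mouse release 21 on GRCm38 (mm10), because the treatment targets rG4s. The pattern searched on the transcript strand was GGG or a longer run of G, 4 times over, separated by 1 to 7 bases. It was found in the longest coding transcript of 2 of the 8 genes, both of the LSM14 family, against 19.7% of the 14881 tested genes with a coding transcript. The match in Lsm14a lay in exon 1, in the 5′-UTR (chr7:34389629-34389649, minus strand), and both matches in Lsm14b lay in exon 9, in the 3′-UTR (chr2:180034785-180034802 and chr2:180034805-180034821, plus strand). Capitals mark runs of 3 or more G, and a loop may itself be a G, as inside the last run of the second match in Lsm14b, which shows 3 separate runs.
Lsm14a 5′-UTR: GGGcGGGaggctGGGGGaGGG
Lsm14b 3′-UTR, first: GGGGtGGGaGGGccaGGG
Lsm14b 3′-UTR, second: GGGacaGGGtGGGGGGG
With loops of up to 12 bases 4 genes matched, Ybx2 and Ybx1 being added (33.8% of tested genes), and with runs of as few as 2 G all 8 did (95.9%). A match is a description of the letters and not a measured rG4, and the absence of a match in Zar1 says only that these patterns of 3 G are not in its annotated transcript, whose 5′-UTR has 197 bases. The study examined an rG4 in a shorter form of the Zar1 5′-UTR by other assays, which were not analysed here.

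The cytoplasmic polyadenylation element, bound by CPEB1, marks many stored mRNAs for later lengthening of the poly(A) tail. The words TTTTAT and TTTTAAT were searched in the last 100 bases of each 3′-UTR, on the transcript strand. They were found in Ybx2 (chr11:69941533-69941560, plus strand), Ybx1 (chr4:119278052-119278079, minus strand) and Lsm14a (chr7:34344671-34344698, minus strand), against 18.7% of 13592 tested genes whose 3′-UTR reaches that length. Capitals mark the element.
Ybx2 3′-UTR: ctctgaagccaTTTTATgaactgtcatg
Ybx1 3′-UTR: aagaacttcatTTTTAATttgtaataaa
Lsm14a 3′-UTR: ccactttgtgtTTTTAATaaaggccatg
In Lsm14a the element overlaps an AATAAA polyadenylation signal. Ybx2 had neither AATAAA nor ATTAAA in these last 100 bases, where 79.4% of the 13592 genes had one. The annotated 3′-UTR of Zar1l has 14 bases and could not be read in this way.

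Some of these genes share sequence with each other or with pseudogenes, which bears on how far short footprints can be assigned. Of the 28-base words of the Ybx1 coding sequence, 70.6% also occur in transcripts of other genes, most of them in the processed pseudogene Gm11560. For Zar1 the share was 44.0%, with the pseudogene Gm15847 on the same chromosome. It was 1.69% for Lsm14a, 0.442% for Lsm14b and 0 for the other 4 genes. How reads with several matches were counted is not given in the sources used here, so the levels of Ybx1 and Zar1 are uncertain. The longest stretch that Lsm14a and Lsm14b coding sequences have in common has 30 bases (chr7:34389425-34389454, minus strand, and chr2:180025216-180025245, plus strand), over an aligned identity of 71.3%.
Lsm14a and Lsm14b: ggcagcaagatcagcctcatctccaaggcg

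At maturation, Zar1 and Ybx3 fell, Lsm14a rose, and the other 5 genes did not pass the test. Thus 1 of 8 genes was called higher, against 3.67% of all tested genes, and 2 of 8 lower, against 3.09%. The median change over the 8 genes was -1.68, compared with -0.44 over all tested genes. Many of the tested genes had lower levels than these 8. Among the 9520 genes averaging 5 FPKM or more, 675 were called higher and 644 lower, with a median of -0.61. The 8 genes kept 1 and 2 calls there. For 7 genes both WT_MII libraries lay on the same side of both WT_FGO libraries, Ybx1 being the exception. Lsm14a and Lsm14b lay above, where 15.3% of all genes did, and Zar1, Zar1l, Ybx2, Ybx3 and Patl2 lay below, where 25.8% did. All calls at maturation, of these 8 and of all other genes, rest on the spread pooled over the 6 libraries: fitting WT_FGO and WT_MII alone, or leaving out either Treat_MII library, left 0 genes called by limma. The pooled spread was unequal between groups. Over 2706 genes with at least 60 reads, the log2 difference between the 2 libraries had an SD of 1.54 in WT_FGO. It was 1.03 in WT_MII and 0.50 in Treat_MII. The fit takes 1 spread for all groups, so p-values may be too small at maturation and too large with treatment. An unadjusted p under 0.05 was seen for 3443 genes (22.8%) in the fit of all libraries.

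**Figure D1:**
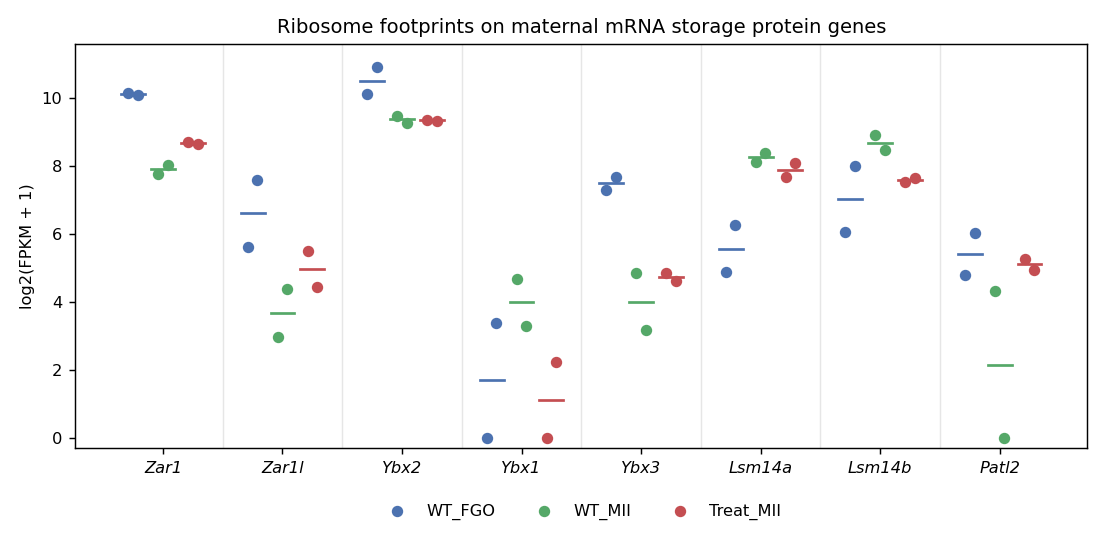
Footprint level of each gene in each library, on the log2(FPKM + 1) scale; every point is a library, every bar the mean of the 2 libraries of a group. Zar1 and Ybx3 sit lower and Lsm14a higher in both metaphase II groups than in WT_FGO.

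Zar1 (chr5:72576806-72581254, minus strand), whose loss arrests embryos at the start of development, was among the most strongly read genes of the set. It had 1146 and 1093 FPKM in the WT_FGO libraries, 218 and 264 FPKM in those of WT_MII, and 415 and 399 FPKM in those of Treat_MII. These values came from 117 and 127, 39 and 66, and 149 and 119 reads. The 3 groups did not overlap, with WT_FGO highest and WT_MII lowest. From a mean of 1119 ± 36.9 FPKM (SD, n = 2) in WT_FGO to 241 ± 32.3 FPKM (SD, n = 2) in WT_MII the change was -2.22 ± 0.24 (SE) on the log2 scale (limma, adjusted p = 0.00705). Without either Treat_MII library the adjusted p was 0.110 and 0.111, with the same change. Its place among all genes moved from 97 and 84 in WT_FGO to 549 and 461 in WT_MII.

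Zar1l (chr5:150507055-150518164, minus strand), the paralog of Zar1, was read far less often. Its levels were 48.6 and 192 FPKM in the WT_FGO libraries, 6.94 and 19.8 FPKM in those of WT_MII, and 44.9 and 20.8 FPKM in those of Treat_MII. The libraries of each group differed by more than 2-fold, the higher WT_FGO value being that of WT_FGO_2. The change at maturation was -2.93 ± 0.89 (SE, limma adjusted p = 0.117). As counts, 5 reads in WT_MII against 22 in WT_FGO gave a ratio of 0.116 after scaling to depth with an exact 95% interval of 0.0342 to 0.313, which covers counting error only. Zar1 lay above Zar1l in every library, by 2.5 to 4.79 on the log2 scale of FPKM + 1, and the groups overlapped in this ratio.

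Ybx2 (chr11:69935796-69941605, plus strand) encodes MSY2, the main Y-box protein of germ cells, which stabilizes stored mRNAs. It had 1108 and 1923 FPKM in the WT_FGO libraries, 709 and 623 FPKM in those of WT_MII, and 663 and 641 FPKM in those of Treat_MII. The mean of Ybx2 was the highest of the 8 genes in all 3 groups, although its range overlapped that of Zar1 in WT_FGO. The WT_MII libraries lay below the WT_FGO libraries, but the change of -1.13 ± 0.31 (SE) had an adjusted p of 0.0888 in limma. Without WT_FGO_1 the change was -1.53 (adjusted p 0.0258), without WT_FGO_2 it was -0.74 (0.0962), and on centring it was -0.67 (0.225). Precision weights from the recovered reads gave an adjusted p of 0.00011, and over the other alternatives it ranged up to 0.443, without a trend.

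Ybx3 (chr6:131364855-131388476, minus strand) encodes another Y-box protein of germ cells, MSY4. It had 157 and 207 FPKM in the WT_FGO libraries, 28 and 8.0 FPKM in those of WT_MII, and 27.9 and 23.5 FPKM in those of Treat_MII. Both metaphase II groups lay well below WT_FGO and overlapped each other. The mean fell from 182 ± 35.3 FPKM (SD, n = 2) before maturation to 18.0 ± 14.1 FPKM (SD, n = 2) in WT_MII, a change of -3.49 ± 0.67 (SE, limma adjusted p = 0.0376). The WT_MII values rest on 5 and 2 reads. Pooled counts gave a ratio of 0.0891 with an exact 95% interval of 0.0337 to 0.201. Without a single library the adjusted p ranged from 0.0217 to 0.162, and the call was lost in 5 of the 6 cases, all but that without WT_MII_1.

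Ybx1 (chr4:119277981-119294604, minus strand), the Y-box gene expressed in most tissues, was close to the limit of detection. It had 0 and 9.53 FPKM in the WT_FGO libraries, 24.8 and 8.86 FPKM in those of WT_MII, and 0 and 3.71 FPKM in those of Treat_MII, from 0 to 4 reads per library. The WT_FGO and WT_MII libraries overlapped, and the adjusted p of the change of 2.30 ± 1.51 (SE) was 0.482 in limma. A difference was not detectable at this depth, since 6 reads against 1 gave a ratio of 3.05 with an exact 95% interval of 0.371 to 141. The pseudogene copies named above add to this uncertainty.

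Lsm14a (chr7:34344646-34393315, minus strand) encodes an RNA-binding protein of P-bodies, the cytoplasmic particles of repressed mRNA. It had 28.7 and 75.8 FPKM in the WT_FGO libraries, 279 and 337 FPKM in those of WT_MII, and 206 and 270 FPKM in those of Treat_MII. All metaphase II libraries lay above both WT_FGO libraries. The mean rose from 52.2 ± 33.3 FPKM (SD, n = 2) to 308 ± 41.1 FPKM (SD, n = 2) in WT_MII, a change of 2.69 ± 0.52 (SE, limma adjusted p = 0.0376). As counts, 183 reads in WT_MII against 16 in WT_FGO gave a ratio of 5.82 with an exact 95% interval of 3.49 to 10.4. The call held without WT_FGO_1 (0.0475) and without WT_FGO_2 (0.0198), and was lost without any of the other 4 libraries (0.160 to 0.193).

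Lsm14b (chr2:180024987-180035465, plus strand), a paralog prominent in oocytes, had libraries that scattered more widely within WT_FGO. Its levels were 66.7 and 257 FPKM in the WT_FGO libraries, 481 and 354 FPKM in those of WT_MII, and 185 and 203 FPKM in those of Treat_MII. The WT_MII libraries lay above all others, whereas the Treat_MII values fell between those of the WT_FGO libraries. The change at maturation was 1.65 ± 0.63 (SE, limma adjusted p = 0.192), and it rested on which WT_FGO library was kept, being 0.68 without WT_FGO_1 (adjusted p 0.244) and 2.61 without WT_FGO_2 (adjusted p 0.0304). The ratio of Lsm14b over Lsm14a on the log2 scale of FPKM + 1 was 1.19 and 1.75 before maturation (WT_FGO), 0.78 and 0.07 after it (WT_MII), and -0.16 and -0.41 after treatment (Treat_MII). The groups did not overlap in this ratio, which had no test. In WT_FGO it rests on 8 and 35 reads of Lsm14b and on 4 and 12 reads of Lsm14a. Ybx2 over Zar1 and Ybx2 over Ybx1 also separated WT_MII from both other groups, and Ybx2 over Ybx3 separated WT_MII from WT_FGO. With 0 to 4 reads of Ybx1 per library, the ratio over Ybx1 depends on the added 1 and says little. How often other pairs of genes separate in this way was not computed.

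Patl2 (chr2:122120108-122186189, minus strand), an oocyte member of the PAT1 family whose human mutations block oocyte maturation, had few reads. Its levels were 26.7 and 64.6 FPKM in the WT_FGO libraries, 19.1 and 0 FPKM in those of WT_MII, and 38.0 and 29.7 FPKM in those of Treat_MII. WT_MII was lowest, with 5 and 0 reads against 4 and 11 in WT_FGO, and the value of 0 came from a library with 230907 reads. Pooled counts gave a ratio of 0.170 with an exact 95% interval of 0.0483 to 0.491, counting error alone. The change at maturation was -3.25 ± 1.42 (SE, limma adjusted p = 0.247). It was -1.09 without WT_MII_2 and -5.41 without WT_MII_1.

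WT_FGO_2 was higher than WT_FGO_1 for 7 of the 8 genes, Zar1 being the exception. The share of all tested genes that were higher in WT_FGO_2 was not computed. This library also held the most granulosa and cumulus marker footprints. The 14 oocyte markers summed to less in it, with 29382 FPKM against 45804 FPKM in WT_FGO_1. The part of the granulosa and cumulus markers in the results was not tested. Without WT_FGO_2, 2 genes were called higher at maturation (Lsm14a and Lsm14b) and 1 lower (Zar1), while the calls over all tested genes went to 902 higher and 848 lower.

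**Figure D2:**
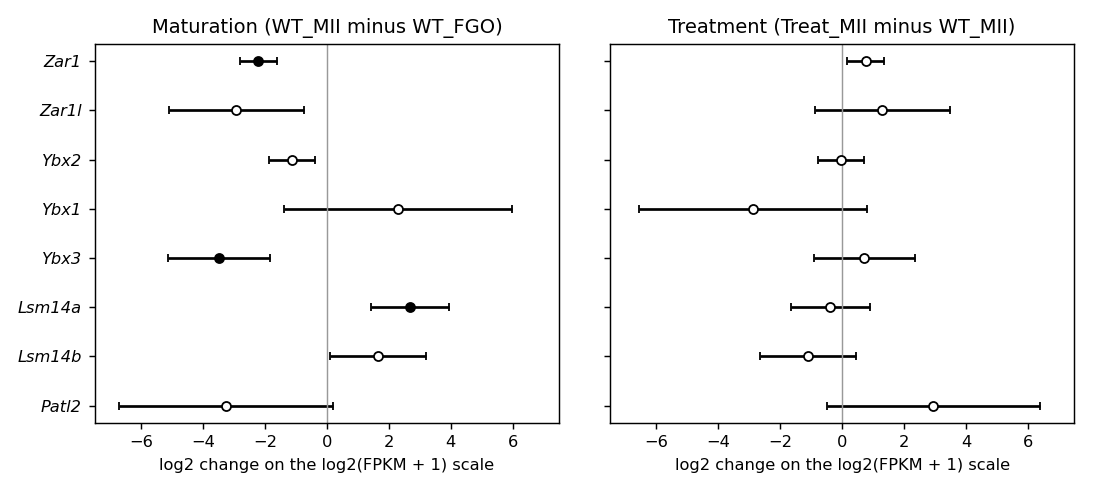
Change of each gene at maturation and with treatment on the log2(FPKM + 1) scale, with 95% confidence intervals of the limma fit; filled points have an adjusted p under 0.05. Zar1, Ybx3 and Lsm14a are filled at maturation and no gene is filled with treatment.

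The order of the 8 levels changed with maturation. In WT_FGO, Ybx2 and Zar1 overlapped at the top with means of 1515 and 1119 FPKM, and Ybx3, Lsm14b, Zar1l, Lsm14a and Patl2 followed with each range overlapping the next. In WT_MII, Ybx2, Lsm14b, Lsm14a and Zar1 stood apart from each other at 666, 418, 308 and 241 FPKM, and the other 4 genes followed with means of 9.55 to 18.0 FPKM, each range overlapping the next. In Treat_MII the order at the top was Ybx2, Zar1, Lsm14a and Lsm14b, again without overlap, at 652, 407, 238 and 194 FPKM. FPKM is scaled to length, so these are levels per kilobase of coding sequence.

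With treatment, none of the 8 genes passed the test. This comparison shares the WT_MII libraries with that of maturation, so a WT_MII value that is low or high by chance moves both in opposite directions. limma called 0 of all 15127 genes (0%), of which 882 (5.83%) had an unadjusted p under 0.05, and among the 8 genes Zar1 had one (0.0199, adjusted p 0.823). With precision weights from the recovered reads limma called 65 genes higher and 100 lower of 14544, and 0 of these 8. The median change over the 8 genes was 0.35, against 0 over all tested genes. Without WT_MII_2 it was -0.12.

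Zar1 differed with treatment by 0.76, with a 95% confidence interval of 0.17 to 1.35, and both Treat_MII libraries lay above both WT_MII libraries. As counts, 268 reads against 105 gave a ratio of 1.66 with an exact 95% interval of 1.32 to 2.11. Zar1l and Patl2 also lay above in both libraries, where 16.2% of all genes did, with differences of 1.30 (-0.88 to 3.47) and 2.95 (-0.50 to 6.40). Both values depended on single libraries: Zar1l was 0.60 without WT_MII_1 and 1.99 without WT_MII_2, and Patl2 was 5.11 and 0.79. Ybx1, Lsm14a and Lsm14b lay below, where 15.6% of all genes did. Their differences were -2.88 (-6.56 to 0.80), -0.38 (-1.64 to 0.89) and -1.09 (-2.63 to 0.46). For Lsm14b the counts of 149 against 205 reads gave a ratio of 0.474 with an exact 95% interval of 0.381 to 0.588, counting error alone.

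Ybx2 and Ybx3 overlapped between WT_MII and Treat_MII. The difference for Ybx2 was -0.03, with a 95% confidence interval of -0.77 to 0.72. For Ybx3 it was 0.72, with an interval of -0.92 to 2.35.

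**Figure D3:**
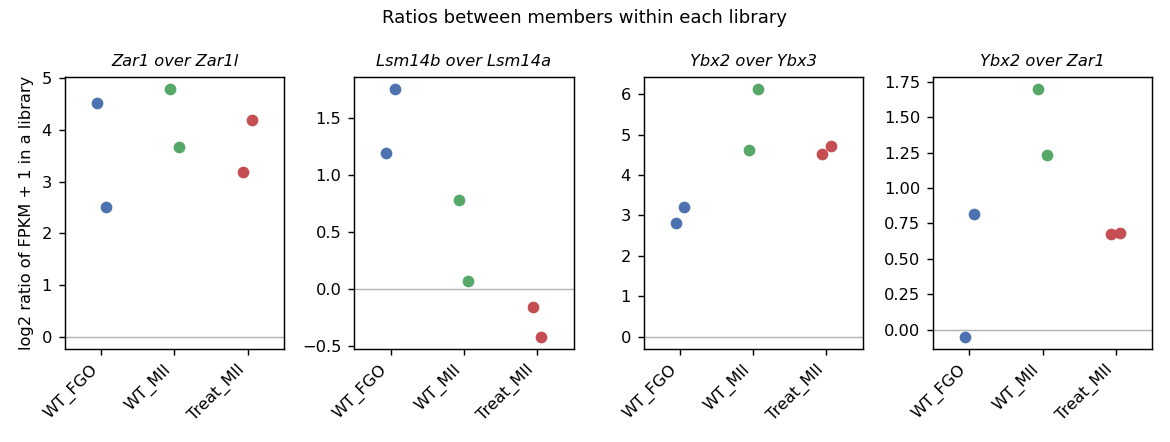
Ratio between pairs of the genes within each library, as the log2 difference of FPKM + 1; every point is a library. Lsm14b over Lsm14a goes from 1.19 and 1.75 in WT_FGO to -0.16 and -0.41 in Treat_MII, whereas Zar1 over Zar1l overlaps between groups. Ybx2 over Zar1 is higher in WT_MII than in both other groups.

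Treat_MII was also set against WT_FGO, a comparison that shares both groups with those above. Zar1 was lower, by 1.46 ± 0.24 (SE) on the log2 scale (limma, adjusted p = 0.0332). It was the sole gene of the 8 called, so 0 of 8 were higher (2.86% of all genes) and 1 of 8 lower (1.0%). The call was lost without either WT_MII or either Treat_MII library, and with no filter, centring, the replicate block, the compared groups only or no trend. The changes of Lsm14a and Ybx3 were 2.31 ± 0.52 (SE, adjusted p 0.0743) and -2.77 ± 0.67 (SE, adjusted p 0.0894). Lsm14b and Patl2, with 0.56 and -0.30, overlapped between these groups.

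Other genes of the storage particles were read from a list of 25, all of which were tested. At maturation 3 were called higher and 5 lower, where 3.67% and 3.09% of all tested genes were, with a median of -0.85 against -0.44. Of the 14 oocyte markers 3 were called higher and 7 lower, with a median of -2.10. The genes that fell were Eif4enif1, which holds eIF4E away from initiation, Eif4e1b, an oocyte form of eIF4E, Cpeb1, Caprin2 and Pabpc1l, the poly(A)-binding protein of oocytes. Cpeb1 went from 579 and 658 FPKM in WT_FGO to 155 and 205 FPKM in WT_MII (-1.79 ± 0.31, SE, adjusted p 0.0269), and Eif4e1b from 1256 and 612 FPKM to 150 and 112 FPKM (-2.75 ± 0.41, SE, adjusted p 0.0188). Pabpc1l had the largest fall of the list, from 338 and 282 FPKM to 0 and 11.9 FPKM, the latter from 0 and 5 reads. For Caprin2 the WT_MII values rest on 0 and 3 reads.

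The genes that rose were Atxn2l, Lin28a and Edc4. They encode a stress granule protein related to ataxin-2, an RNA-binding protein of oocytes and stem cells, and a scaffold of the decapping complex. Lin28a had few reads, with 3 and 3 in the WT_FGO libraries and 18 and 43 in those of WT_MII. Atxn2l went from 44.2 and 88.2 FPKM in WT_FGO to 767 and 671 FPKM in WT_MII (3.50 ± 0.38, SE, adjusted p 0.00708), and was also called higher in Treat_MII than in WT_FGO. Ddx6, the helicase at the centre of the repressor assembly, did not pass, with 14.6 and 38.6 FPKM in WT_FGO and 12.6 and 26.9 FPKM in WT_MII. With treatment 0 of the 25 genes were called, and the median was 0.44. Of these, 5 had an unadjusted p under 0.05, namely Stau1, Caprin2, Pabpc1l, Cpeb1 and Eif4enif1, all with higher means in Treat_MII. Of all tested genes 5.83% had such a p in either direction. Stau1, Caprin2 and Pabpc1l were at 0 in WT_MII_1 and had 2, 3 and 5 reads in WT_MII_2. The sizes of their differences therefore depend on the added 1. The oocyte markers had a median of 0.85 with treatment, 13 of 14 being above 0 and 0 called.

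**Figure D4:**
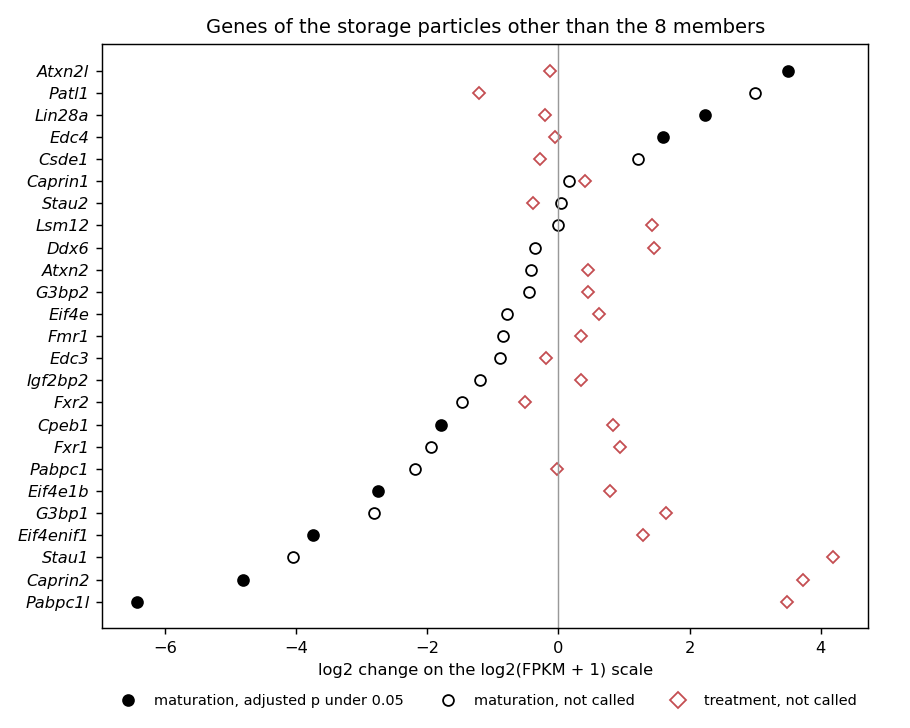
Change of 25 further storage particle genes on the log2(FPKM + 1) scale, at maturation (circles, filled where the adjusted p is under 0.05) and with treatment (diamonds). At maturation 3 genes are filled to the right of 0 and 5 to the left, and with treatment none passed.

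The profiles were last compared with those of all named genes averaging 50 FPKM or more, by the root mean square difference of log2(FPKM + 1) about each gene's own mean over the 6 libraries. The closest gene was Cops4 for Ybx2 (0.11), Khdrbs1 for Lsm14a (0.12), Gyg for Zar1 (0.15), Bri3 for Lsm14b (0.26), Birc5 for Ybx3 (0.27), Otub1 for Zar1l (0.37), H1f4 for Patl2 (0.61) and Sf3a1 for Ybx1 (0.89). Gyg, for example, had 1974 and 1570 FPKM in the WT_FGO libraries, 287 and 326 FPKM in those of WT_MII, and 552 and 580 FPKM in those of Treat_MII. The member closest to Zar1 was Ybx2 at 0.54, and 292 of 2069 other genes were closer. Such likeness is a description over 6 libraries.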

How the data were processed

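The deposited FPKM were made by the authors per library, on mm10, with cutadapt 1.14, Bowtie2 2.2.2 and STAR 2.5.3a named in the submitters' processing notes; which counter and annotation were used, and whether molecular identifiers were collapsed, is not given in the sources used here. Of 22442 rows, 26 repeated a gene name and were dropped. Reads were recovered as FPKM times the union coding length (GENCODE mouse release 21), with whole numbers in all 6 libraries for 98.4% of genes (tolerance 0.02 reads), including all 8 members.

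Genes averaging 1 FPKM or more were fitted as log2(FPKM + 1) in limma 3.58.1 (R 4.3.3), with lmFit over the 3 groups of all 6 libraries, eBayes with trend and Benjamini-Hochberg adjustment over all tested genes. The added 1 shrinks the changes of low genes, but a library at 0 can enlarge them. For Patl2 at maturation the change was -3.25 on the log2 scale, while pooled reads fell less, by 5.89-fold. With 2 libraries against 2, an exact permutation test cannot go below p = 0.333 (two-sided), and none is given. Ratios of reads pooled per group have exact 95% intervals that cover counting error alone.

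The code was tested on simulated data. With the spread tried first it recovered the sizes of the changes and made no calls. A smaller, assumed spread, added after that, gave calls, among them unchanged genes with few reads above the nominal rate. The test thus bears on the code and not on the power of these libraries.

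Named genes are the 8 members, partners that were called, and the closest profile to each member among named genes. Ddx6 and the partners with an unadjusted p under 0.05 at treatment were named after their values were seen. The members and lists were chosen with earlier results of these data known. The identity of paralog coding sequences was added after the files were examined, and protein identity was not computed. Alternatives were another pseudocount, other filters, scalings, fits and weights, a replicate block, and leaving out each library.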

Additional observations from a re-analysis of the deposited data

How the results depend on the processing

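At maturation the counts of called genes (1 higher, 2 lower of 8) became 0 and 1 with a pseudocount of 0.1 and without a filter, 0 and 0 with the compared groups only and without a trend, and 2 and 5 with precision weights from recovered reads. Leaving out single libraries gave 0 to 2 higher and 0 to 2 lower. For Treat_MII against WT_FGO (0 higher, 1 lower) the counts were 1 and 0 on centring, 1 higher on quantile normalization, 1 and 3 with precision weights, and 0 lower without a filter, with the replicate block, with the compared groups only and without a trend; without single libraries they ranged from 0 to 1 and from 0 to 2. With treatment 0 of the 8 genes were called under every alternative run. The calls over all genes moved too. Precision weights called 803 of 14544 genes higher and 1575 lower at maturation, and 850 and 1984 for Treat_MII against WT_FGO. For the latter comparison centring called 594 higher and 65 lower of 15127, and quantile normalization 598 and 171. The median change over the 8 genes ranged without single libraries from -1.86 to -1.06 at maturation, from -0.12 to 0.39 with treatment and from -1.49 to -0.16 for Treat_MII against WT_FGO.

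Over all genes, the treatment comparison called 27 higher and 0 lower without a filter, 17 and 347 or 31 and 387 when WT_MII_1 or WT_MII_2 was left out, and 363 and 0 or 398 and 0 when Treat_MII_1 or Treat_MII_2 was, where the lone library is assumed to vary like the other groups. The maturation comparison called 349 and 187 without a filter and 188 and 140 without a trend. The causes were not tested. The treatment differences of Ybx2 and Ybx3, neither called, changed sign, to 0.0668 without WT_MII_1 for Ybx2 and to -0.13 without WT_MII_2 for Ybx3; over the left-out libraries they ranged from -0.12 to 0.0668 and from -0.13 to 1.56. The motif count in the 8 genes was 4 with loops of up to 12 bases and 8 with runs of at least 2 G.

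Same-numbered libraries did not deviate together (correlations of 0.0342, 0.0176 and 0.0189 over 2706 genes), so the numbers were not taken as pairs. With the replicate block 453 genes were called higher and 335 lower at maturation, and 1 and 2 of the 8. Depth limits Ybx1, Zar1l and Patl2 most, which had 1 to 33 reads per group.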
